A study of Mus musculus with 8 samples.

Results

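The 10 genes described here encode neuronal cytoskeleton and axonal transport proteins: the kinesin motors Kif5a, Kif5c and Kif1a, the microtubule-associated proteins Map2, Map1b and Mapt, the neurofilament subunits Nefl and Nefm, the tubulin Tubb3 and the stathmin Stmn2. They were taken by name from 55573 Ensembl genes counted in each library, and all 10 were found and passed the filter on low counts. RNA came from cells sorted by tdTomato fluorescence from mouse cortex, with the sort described by the submitters as parvalbumin (PV) interneurons. There were 4 groups of 2 libraries: WT and KO mice at 6 months and WT and KO mice at 18 months. Every group carried PV-Cre, a recombinase driven from the parvalbumin locus, and the tdTomato reporter on a C57BL/6 background. WT mice were PV-Cre/tdTomato/Dnmt1 wild-type, and KO mice were PV-Cre/tdTomato/Dnmt1 loxP2, in which exons 4 and 5 of the DNA methyltransferase gene Dnmt1 are flanked for deletion by Cre, so the gene is lost only in cells where PV-Cre is active. The stock behind the loxP2 mice was B6;129Sv. The 2 libraries of a group are technical replicates, and cells were pooled from 6 WT and 6 KO mice (per age or in all is not stated in the labels). The p-values below therefore reflect library-to-library spread, possibly technical, rather than variation from mouse to mouse.

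Neurons carry cargo over long distances on tracks of microtubules. Kinesins walk towards the far end of the axon and dynein walks back, microtubule-associated proteins stabilise and space the tracks, and neurofilaments set the calibre of large axons. Fast-spiking PV interneurons have densely branched axons, but tau, several kinesins and tubulins are also made by oligodendrocytes, whose processes rest on microtubules, and some MAPs are made by other glia.

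Library totals ranged from 6008175 to 13551218 counts. The WT libraries at 6 months stood apart: their log2 CPM (counts scaled to a common library total) correlated with the libraries of other groups at r of 0.9 to 0.951 over genes, against 0.958 to 0.977 among the other groups. Dnmt1 levels at 6 months were 101 ± 4.03 (WT) and 76.2 ± 1.39 CPM (KO), and at 18 months 80.9 ± 0.217 (WT) and 75.4 ± 1.64 CPM (KO) (SD, n = 2). The gene was lower in KO at 6 months (log2 fold change -0.40, edgeR adjusted p = 1e-04) and not at 18 months (-0.10, edgeR adjusted p = 0.281). Reads from other exons still count to Dnmt1, so its level is a weak check of the genotype. Pvalb, the marker that defines the labelled cell type, had 6 reads over the 8 libraries, and the 10 markers of parvalbumin interneurons reached a sum of 172 to 177 (WT) and 65.8 to 76.5 CPM (KO) in the younger groups and of 40.8 to 41.0 (WT) and 27.1 to 34.7 CPM (KO) in the older ones. Summed over the 14 oligodendrocyte markers, the younger WT and KO libraries held 14383 to 14434 and 31237 to 32152 CPM, and the older ones 42184 to 42208 and 28577 to 29113 CPM. For the 12 astrocyte markers the sums were 12558 to 12637, 7688 to 7726, 4354 to 4379 and 9374 to 9410 CPM in the same order, and for the 16 pan-neuronal markers, which include no gene of the 10, 1262 to 1276, 741 to 770, 587 to 604 and 392 to 399 CPM. Elavl3 alone, at 179, 340, 399 and 239 CPM in the group means, made up 14.1%, 44.9%, 66.9% and 60.3% of the pan-neuronal sum in that order; without it, a change made after its values were seen, the other 15 summed to 1090 ± 3.67, 416 ± 6.97, 197 ± 8.11 and 157 ± 4.35 CPM (SD, n = 2). Each marker of these 4 lists had reads in at least 1 library. The part of each cell type in the values below was not tested, and in such mixed RNA fewer cells of a type and less RNA per cell cannot be told apart.

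The genes lie apart in the mm10 genome, except for the neurofilament pair. All are annotated as protein-coding in GENCODE M21. Kif1a (ENSMUSG00000014602) spans chromosome 1, 93015464 to 93101951, and Map2 (ENSMUSG00000015222) spans chromosome 1, 66175273 to 66442583. Kif5a (ENSMUSG00000074657) is on chromosome 10, 127225696 to 127263348, and Kif5c (ENSMUSG00000026764) on chromosome 2, 49619298 to 49774778. Mapt (ENSMUSG00000018411) is on chromosome 11, 104231390 to 104332090, and Map1b (ENSMUSG00000052727) on chromosome 13, 99421446 to 99516540. Tubb3 (ENSMUSG00000062380) is on chromosome 8, 123411424 to 123422015, and Stmn2 (ENSMUSG00000027500) on chromosome 3, 8509360 to 8561606. Nefl (ENSMUSG00000022055, plus strand, 68083863 to 68089095) and Nefm (ENSMUSG00000022054, minus strand, 68082590 to 68124846) share part of chromosome 14: 1108 bases of exon overlap, 32.8% of the exonic length of Nefl and 19.2% of that of Nefm. The strand setting of the authors' counting is not stated in the labels, so reads from the overlap cannot be assigned to either gene.

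Promoter sequence is shown for Map2, Kif1a and Tubb3, the genes with a window in the RefSeq table whose genotype difference changed with age by the interaction test, because Dnmt1 maintains methylation at CG dinucleotides. No methylation was measured in these libraries. RefSeq (build GRCm38.p6, the same sequence as mm10) gave windows of 250 bases before to 50 after a start site for 5 of the 10 genes: Map2, Kif1a with 2 starts, Kif5c, Tubb3 and Map1b; Kif5a, Mapt, Nefl, Nefm and Stmn2 were not matched. The bases before both the RefSeq and the GENCODE start are printed 5′ to 3′ on the gene's strand, with every CG in capitals. The Map2 stretch is chr1:66175079-66175272 (plus strand), the Kif1a stretch is chr1:93101952-93102124 (minus strand) and the Tubb3 stretch is chr8:123411303-123411423 (plus strand).
Map2: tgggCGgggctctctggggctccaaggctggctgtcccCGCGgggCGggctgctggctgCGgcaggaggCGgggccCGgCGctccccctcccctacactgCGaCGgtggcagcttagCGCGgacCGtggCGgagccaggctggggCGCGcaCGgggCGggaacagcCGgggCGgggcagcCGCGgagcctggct
Kif1a: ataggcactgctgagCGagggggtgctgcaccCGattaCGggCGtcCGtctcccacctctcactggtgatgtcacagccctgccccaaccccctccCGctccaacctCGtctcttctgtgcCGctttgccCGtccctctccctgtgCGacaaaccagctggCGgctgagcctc
Tubb3: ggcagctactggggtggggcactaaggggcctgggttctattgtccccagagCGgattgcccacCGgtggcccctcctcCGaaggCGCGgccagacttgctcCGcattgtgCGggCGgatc
The Map2 window of 300 bases held 37 CG dinucleotides, more than 94.4% of the 32841 mouse promoter windows of that length, whose median was 7. The windows of Tubb3 (26), Kif1a at its outer start (24), Map1b (23) and Kif5c (14) were also above that median, while the inner Kif1a start had 1. The GC box GGGCGG, searched on both strands, was found 5 times in the Map2 window, 2 times in each of Tubb3 and Map1b, 1 time in Kif5c and not in either Kif1a window, against 35.7% of all windows with a match. The letters TATAAA and TTCAGCACC were also searched on both strands. TATAAA was in the Map1b window on the gene's strand and in the Kif5c window on the opposite strand only (13.6% of all windows had it on either strand). TTCAGCACC, the left arm of the RE1 element of neuronal genes, was in none of the 6 windows (0.371% of all). Matches are descriptions of these windows only.

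Levels differed widely among the 10 genes. Per kilobase of exon, the mean over the 8 libraries was 117 CPM for Kif1a and 115 CPM for Mapt, followed by Tubb3 (27.5), Kif5a (24.1), Map2 (19.1), Kif5c (11.5) and Map1b (10.5). The neurofilament and stathmin genes were far below, at 1.23 CPM per kilobase for Nefl, 0.472 for Nefm and 0.44 for Stmn2. Kif1a and Mapt together made up 59.1% and 69.2% of the summed CPM of the 10 genes in WT and KO at 6 months, and 78.7% and 76.6% at 18 months. In WT that sum was 2521 ± 0.143 CPM at 6 months and 3076 ± 2.48 CPM at 18 months, and in KO 2876 ± 26.9 and 2542 ± 85.7 CPM. Nefl and Nefm, which are abundant in neurons with large axons, did not exceed 7.47 and 5.43 CPM in any library.

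**Figure D1:**
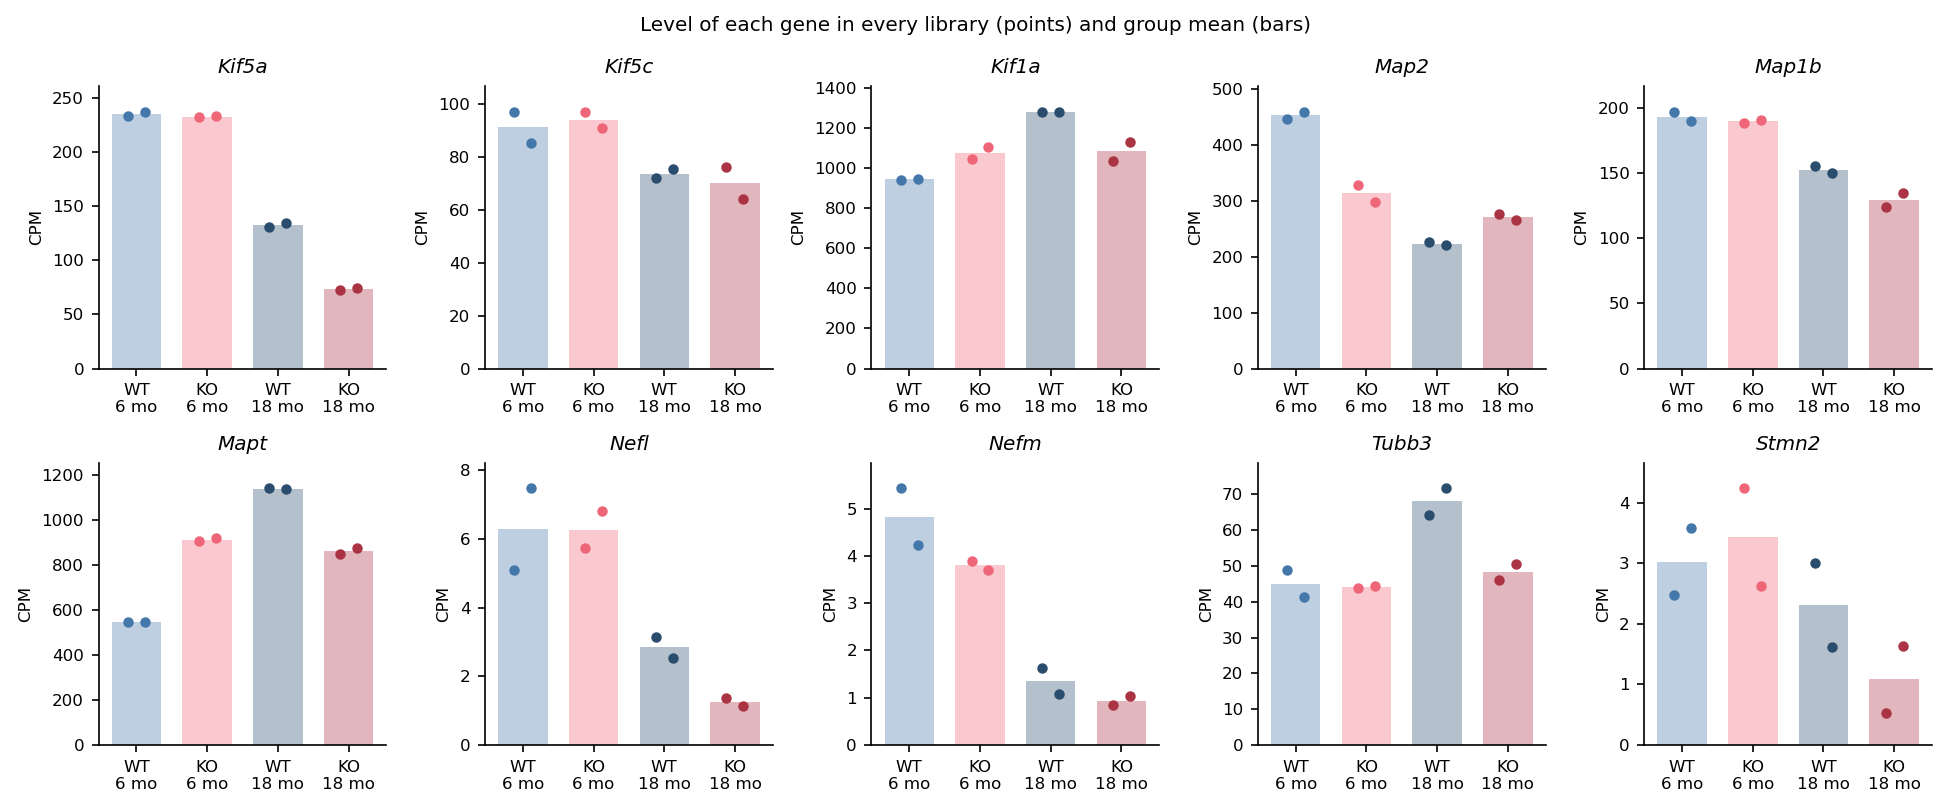
CPM of each of the 10 genes (vertical axes, linear and starting at 0, scaled per gene) in the 4 groups; points are the 2 libraries of a group and bars their mean. Mapt, Kif1a and Tubb3 are highest in WT at 18 months, and Map2 is highest in WT at 6 months. Kif5a, Kif5c, Map2, Map1b, Nefl and Nefm are lower in both groups of 18 months than in both of 6 months. Stmn2 is so in the group means only.

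The first comparison set KO against WT in the younger mice. Whether Dnmt1 was deleted in the cells that gave the RNA was not tested beyond the level of its RNA. Of the 10 genes, Mapt and Kif1a were higher and Map2 was lower in KO, while 7 did not pass the test. Over all 18205 genes tested, 38.8% passed (19.2% higher, 19.6% lower), so 3 of 10 is near the background. The libraries of the 2 genotypes did not overlap for 2 genes higher and 2 lower in KO, beside 33.4% and 33.4% of all genes. The median log2 fold change of the 10 was -0.01, beside -0.0048 over all genes tested.

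Mapt encodes tau, which binds along axonal microtubules. It was measured at 547 and 548 CPM in WT and 908 and 919 CPM in KO at 6 months. The KO libraries were well above both WT libraries, 1.67-fold by the fit (log2 fold change 0.74 with a standard error, SE, of 0.0506 on the log2 scale as below, edgeR adjusted p = 2.5e-11). Kif1a, a fast kinesin that carries synaptic vesicle precursors, was at 941 and 946 CPM in WT and 1045 and 1106 CPM in KO. This increase of 1.14-fold (log2 0.19, SE 0.0536, edgeR adjusted p = 0.00668) was small and was lost without KO replicate 2 (adjusted p = 0.0533). Map2, which bundles microtubules in dendrites, was at 445 and 459 CPM in WT and 329 and 298 CPM in KO. It fell 1.44-fold (log2 -0.53, SE 0.0591, edgeR adjusted p = 9.65e-08), with no overlap of the libraries. Oligodendrocyte markers were higher in KO in 14 of 14 cases, with a median log2 fold change of 1.16, and astrocyte markers lower in 12 of 12 (-0.89).

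The other 7 genes did not pass the test at this age. Kif5a, the neuron-enriched heavy chain of the motor kinesin-1, was at 233 and 237 CPM in WT and 232 and 233 CPM in KO (log2 -0.02, SE 0.0581). Map1b, a large MAP of growing axons, was at 197 and 189 CPM in WT and 188 and 190 CPM in KO (log2 -0.03, SE 0.0628). In both genes the libraries of the 2 genotypes overlapped. Log2 fold changes were 0.05 (SE 0.0873) for Kif5c, -0.03 (SE 0.104) for Tubb3, -0.01 (SE 0.262) for Nefl, -0.34 (SE 0.308) for Nefm and 0.19 (SE 0.417) for Stmn2. Nefl, Nefm and Stmn2 rested on 31 to 57, 26 to 34 and 15 to 37 reads per library at this age, and their standard errors were the widest of the 10. Of the 16 pan-neuronal markers 11 were lower and 1 higher in KO, with a median log2 fold change of -0.86.

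At 18 months the genotype difference had another shape. Kif5a, Nefl, Tubb3, Mapt, Kif1a and Map1b were lower in KO, and Map2 was higher. Over all genes 32.1% passed (14.7% higher, 17.4% lower), against 7 of the 10. Libraries did not overlap for 1 gene higher and 7 lower in KO, beside 32.6% and 34% of all genes. The median of the 10 was -0.44, beside 0 over all genes.

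Kif5a moved farthest among the well-measured genes. It was at 130 and 134 CPM in WT and 72.8 and 74.3 CPM in KO at 18 months, where both KO libraries were far below both WT libraries. The fall was 1.8-fold (log2 -0.85, SE 0.0617, edgeR adjusted p = 1.89e-10). Tubb3, the beta tubulin isotype used as a neuronal marker, was at 64.3 and 71.7 CPM in WT and 46.1 and 50.6 CPM in KO (1.42-fold lower, edgeR adjusted p = 9.2e-05). Mapt was at 1142 and 1137 CPM in WT and 848 and 879 CPM in KO (1.32-fold lower, edgeR adjusted p = 7.63e-07). Both genes had groups that did not overlap.

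The remaining decreases at 18 months were smaller or rested on few reads. Kif1a was at 1281 CPM in both WT libraries and at 1035 and 1131 CPM in KO (1.18-fold lower, edgeR adjusted p = 0.000933). Map1b was at 155 and 150 CPM in WT and 124 and 135 CPM in KO (1.18-fold lower, edgeR adjusted p = 0.00455), which failed without WT replicate 1 (0.0628) or KO replicate 1 (0.0878). The filament subunit Nefl had 25 and 33 reads in WT and 18 and 13 in KO, at 3.13 and 2.54 CPM against 1.37 and 1.12 CPM. Its 2.21-fold decrease (log2 -1.14, SE 0.343, edgeR adjusted p = 0.0123) did not hold without WT replicate 1 (0.0709) or KO replicate 2 (0.079).

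Map2 went the other way, at 225 and 221 CPM in WT and 276 and 265 CPM in KO at 18 months. Both KO libraries were above both WT libraries (1.22-fold higher, log2 0.28, SE 0.0591, edgeR adjusted p = 0.00063). Kif5c (log2 -0.07, SE 0.084), Nefm (-0.47, SE 0.429) and Stmn2 (-1.04, SE 0.464) did not pass. Stmn2, which binds free tubulin in growing axons, had 7 reads in KO replicate 1 and 19 in KO replicate 2 and passed without the latter (log2 -2.01, adjusted p = 0.0141) and, over all libraries, with no filter on low counts (log2 -1.01, adjusted p = 0.0487). Pan-neuronal markers were lower in KO in 10 and higher in 1 of 16 cases (median log2 -0.62). Oligodendrocyte markers were lower in 14 of 14 (-0.66) and astrocyte markers higher in 12 of 12 (1.07). Microglial markers were lower in 10 of 10 (-1.49), and oligodendrocyte precursor markers lower in 10 and higher in 1 of 12 (-0.68).

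**Figure D2:**
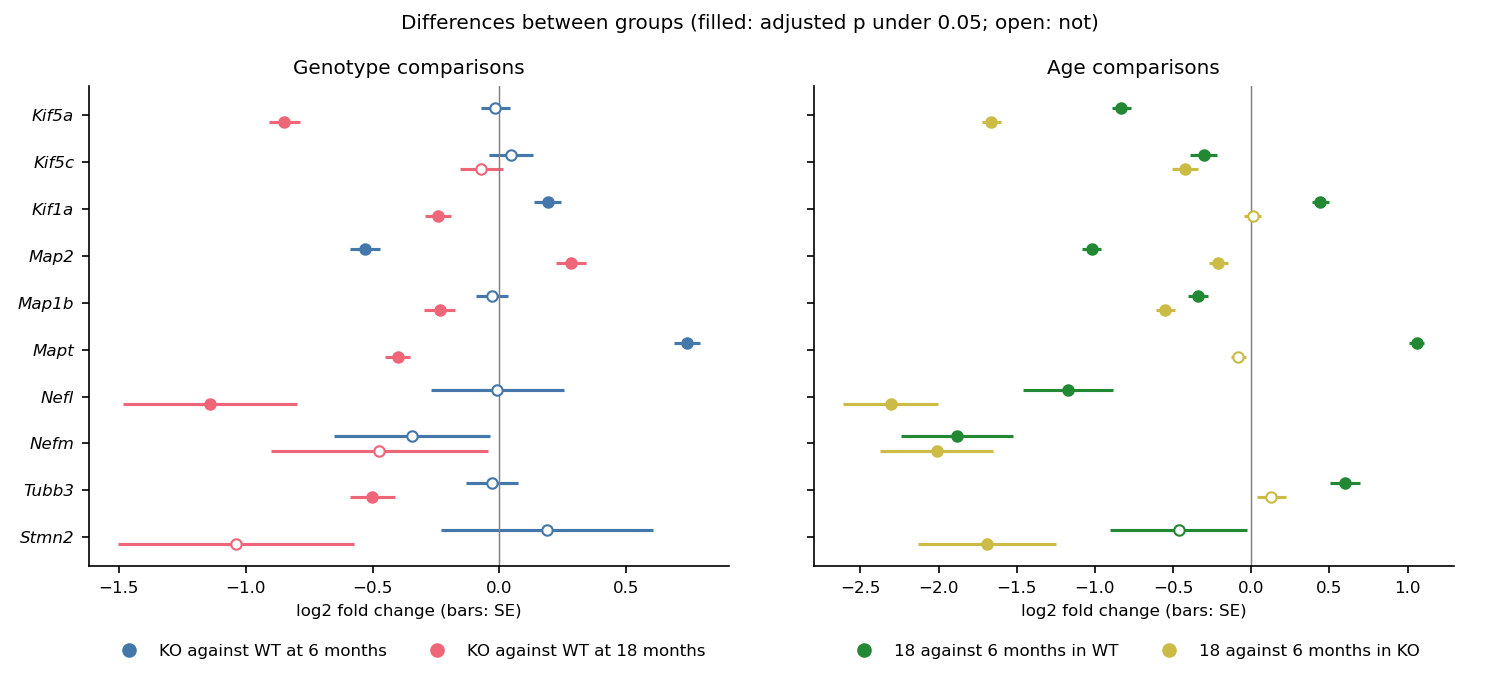
Log2 fold change of the 10 genes (horizontal axes, bars are the standard error) in the genotype comparisons (left) and the age comparisons (right); filled points passed an adjusted p of 0.05 and open points did not. Mapt and Map2 lie on opposite sides of 0 in each genotype comparison and change sides between the ages. Kif5a, Kif5c, Map2, Map1b, Nefl, Nefm and Stmn2 are below 0 in both age comparisons.

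The interaction, which subtracts the log2 genotype difference of the younger mice from that of the older ones, tested whether the genotype differences changed with age. It passed for 6 of the 10 genes, 1 higher and 5 lower, against 39.1% of all genes (18.4% higher, 20.7% lower). Mapt had the smallest p (log2 -1.14, SE 0.0706, edgeR adjusted p = 3.11e-12), as KO was above WT at 6 months and below it at 18 months. Map2 had the opposite sign (log2 0.81, SE 0.0835, edgeR adjusted p = 2.25e-08). Kif5a (-0.83, SE 0.0847, edgeR adjusted p = 1.81e-08) had a log2 fold change of -0.02 at 6 months and -0.85 at 18 months. Kif1a had a value of -0.43 (edgeR adjusted p = 5.41e-05). For Tubb3 (-0.47, edgeR adjusted p = 0.00758) the call was lost without WT replicate 2 of 6 months (0.0541) or of 18 months (0.0614). For Nefl (-1.13, edgeR adjusted p = 0.0401) it was lost with DESeq2 (0.145) and without any of 5 of the 8 libraries (0.0606 to 0.129). Kif5c (-0.12), Nefm (-0.13), Stmn2 (-1.23) and Map1b (-0.21) did not pass, with edgeR adjusted p of 0.479, 0.87, 0.127 and 0.0653. Without KO replicate 2 of 18 months both Stmn2 (-2.20, 0.0196) and Map1b (-0.27, 0.0273) passed, and Map1b did so with another scaling of the libraries, DESeq2's size factors in edgeR (-0.22, 0.0474).

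Across both ages, with age as a term of the model, 0 of the 10 genes passed in edgeR or in DESeq2, against 3.11% of all genes (0.692% higher, 2.42% lower). At an unadjusted p of 0.05, 1 was lower and 0 higher in both edgeR and DESeq2, beside 9.89% and 7.78% of all genes in edgeR; in edgeR the gene was Kif5a. The estimates ranged from -0.49 (Nefl, SE 0.278) to 0.17 (Mapt, SE 0.222). Kif5a had -0.43 (SE 0.163, edgeR adjusted p = 0.218).

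The age comparison in WT asked how the sorted cells of 18 months differ from those of 6 months with Dnmt1 intact. It shares its WT libraries with the genotype comparisons. Mapt, Tubb3 and Kif1a were higher at 18 months, Nefm, Nefl, Map2, Kif5a, Map1b and Kif5c were lower, and only Stmn2 did not pass (log2 -0.46, SE 0.438, edgeR adjusted p = 0.377). The background was 59% of all genes (28.2% higher, 30.8% lower). Libraries of the 2 ages did not overlap for 3 genes higher and 6 lower at 18 months, beside 37.4% and 40% of all genes. The median of the 10 was -0.40, beside -0.04 over all genes.

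Mapt rose 2.08-fold in WT, from 547 and 548 to 1142 and 1137 CPM (SE 0.0506, edgeR adjusted p = 7.53e-15). Map2 fell 2.03-fold, from 445 and 459 to 225 and 221 CPM (SE 0.0598, edgeR adjusted p = 3.48e-13). Tubb3 rose 1.52-fold (edgeR adjusted p = 1.08e-05), from 48.9 and 41.3 CPM at 6 months. Kif1a rose 1.36-fold (edgeR adjusted p = 1.48e-07). Kif5a fell 1.78-fold (SE 0.0596, edgeR adjusted p = 1.55e-11) and Map1b 1.27-fold (edgeR adjusted p = 5.62e-05). In these genes the libraries of the 2 ages did not overlap.

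The neurofilament genes fell more steeply but from few reads. Nefm, the medium subunit, had 33 and 26 reads in WT at 6 months and 13 and 14 at 18 months, at 5.43 and 4.22 against 1.63 and 1.08 CPM (3.69-fold lower, SE 0.358, edgeR adjusted p = 8.23e-05). Nefl, the light subunit on which the filament assembles, went from 5.10 and 7.47 CPM to 3.13 and 2.54 CPM (2.25-fold lower, edgeR adjusted p = 0.00129). Kif5c, a second neuronal kinesin-1 heavy chain, was at 97 and 85.1 CPM and then at 71.8 and 75.3 CPM (1.23-fold lower, edgeR adjusted p = 0.00484), a call lost with DESeq2 (0.0519) and without WT replicate 1 of 6 months (0.13). Beside these, 13 of 16 pan-neuronal markers were lower and 1 higher (median log2 -1.81), 14 of 14 oligodendrocyte markers higher (1.59) and 12 of 12 astrocyte markers lower (-1.63).

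In KO, 7 of the 10 genes were lower at 18 than at 6 months and 0 were higher, in edgeR and DESeq2 alike and also at an unadjusted p of 0.05. The background was 31.7% of all genes (13.8% higher, 17.9% lower), and at an unadjusted p of 0.05 in edgeR 19% were higher and 22.2% lower. Libraries did not overlap for 1 gene higher and 8 lower, beside 33.2% and 34.1% of all genes. The median of the 10 was -0.49, beside 0.0031 over all genes. Kif5a fell 3.16-fold, from 232 and 233 CPM to 72.8 and 74.3 CPM (SE 0.0606, edgeR adjusted p = 1.08e-15), a gap far wider than the spread within either group. Nefl fell 4.95-fold (50 and 57 reads against 18 and 13; SE 0.305, edgeR adjusted p = 2.93e-06) and Nefm 4.03-fold (34 and 31 against 11 and 12; SE 0.362, edgeR adjusted p = 0.000141). Map1b (1.46-fold, edgeR adjusted p = 2.69e-07) and Kif5c (1.34-fold, edgeR adjusted p = 0.000408) were lower too. Stmn2 was 3.22-fold lower (37 and 22 against 7 and 19 reads, edgeR adjusted p = 0.0048), a call lost without replicate 1 of KO at 6 months (0.109) or at 18 months (0.121), the latter with a log2 value of -1.06 in place of -1.69. Map2 was 1.16-fold lower (log2 -0.21, edgeR adjusted p = 0.00795), lost without KO replicate 1 of 6 months (log2 -0.13, 0.181) or replicate 2 of 18 months (0.0628).

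The abundant genes Mapt, Kif1a and Tubb3 did not pass between the ages in KO. Mapt was at 908 and 919 CPM and then at 848 and 879 CPM (log2 -0.08, SE 0.0494), Kif1a had a log2 value of 0.01 (SE 0.053) with overlapping libraries, and Tubb3 was at 43.9 and 44.4 CPM and then at 46.1 and 50.6 CPM (log2 0.13, SE 0.0944). Oligodendrocyte markers were lower in 7 and higher in 2 of 14 cases in this comparison (median log2 -0.21), astrocyte markers higher in 9 of 12 (0.28) and pan-neuronal markers lower in 15 of 16 (-1.28). Microglial markers were lower in 10 of 10 (-1.39). Excitatory neuron markers were lower in 10 and higher in 1 of 12 (-2.55), and GABA neuron markers lower in 7 and higher in 1 of 10 (-2.38).

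A few orders of the groups recurred among the 10 genes. From lowest to highest, Mapt ran WT at 6 months, KO at 18 months, KO at 6 months and WT at 18 months, the order of the summed oligodendrocyte markers; KO at 18 and at 6 months did not differ past the threshold. Kif1a had the same lowest and highest groups. For Map2 these ends were exchanged: WT at 18 months was lowest (223 ± 3.18 CPM) and WT at 6 months highest (452 ± 9.53 CPM), as for the summed astrocyte markers. Kif5a, Map1b and Nefl ran from KO at 18 months, through WT at 18 months, to both groups of 6 months, which did not differ past the threshold. Group means of Kif5c, Nefm and Stmn2 had this order too, but their genotypes did not differ past the threshold at either age. The pan-neuronal sum, with or without Elavl3, also had KO at 18 months lowest and WT at 18 months next, but parted the groups of 6 months.

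**Figure D3:**
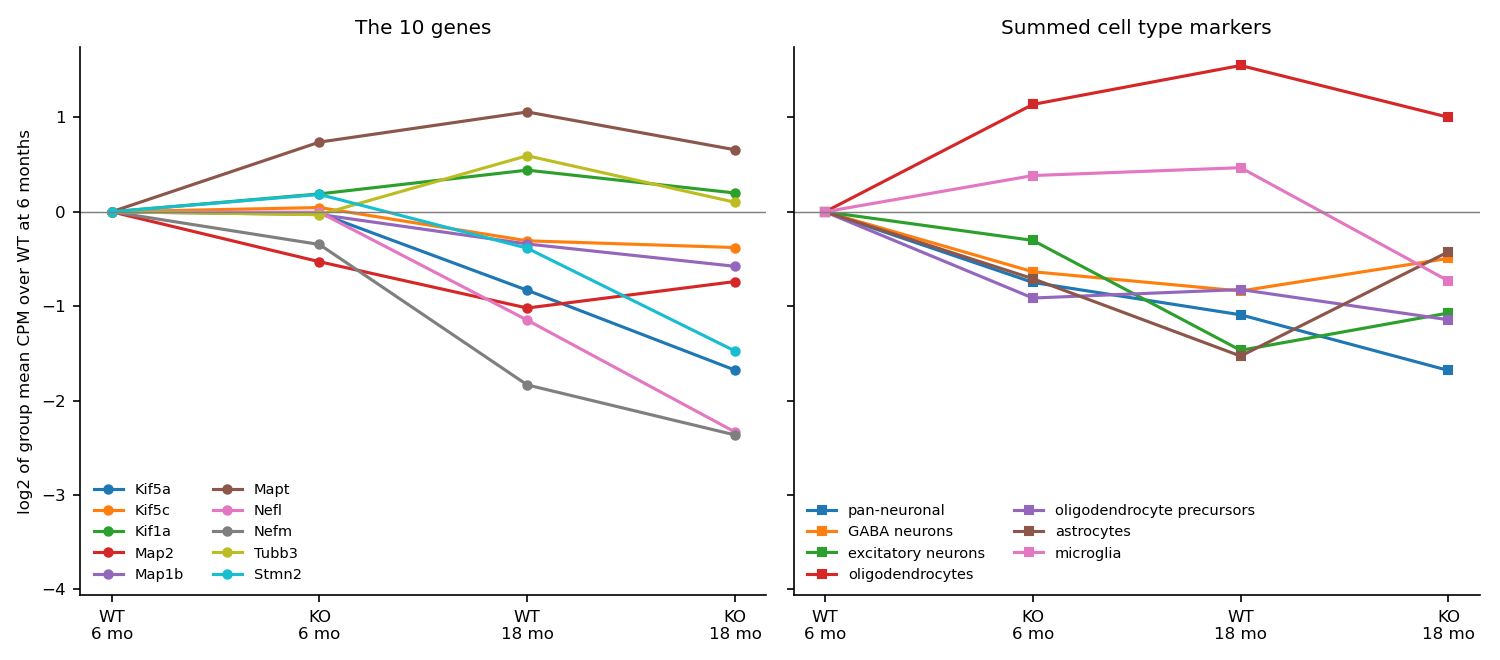
Log2 ratio of the group mean CPM to that of WT at 6 months (vertical axis) for the 10 genes (left) and for summed markers of 7 cell types (right); lines join the 4 groups for the eye only. Mapt rises and falls with the oligodendrocyte sum, and Map2 has the same lowest group as the astrocyte, excitatory neuron and GABA neuron sums. Kif5a, Kif5c, Map1b, Nefl, Nefm and Stmn2 reach their lowest group mean in KO at 18 months. The pan-neuronal sum does so too, with all 16 markers (plotted) and without Elavl3.

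Over the 8 libraries, which are 4 pairs and not independent, log2 CPM of the 45 pairs of these genes correlated with Pearson's r from -0.957 (Map2 with Mapt) to 0.984 (Kif5a with Map1b), with a median of 0.492. Kif1a and Mapt had r of 0.929, and Kif5a and Nefl 0.981. Among all other genes with at least 10 CPM, those most alike by the same measure (n = 8 libraries) were Rims1 (0.997) and Rapgef4 (0.993) for Kif5a, Camk2a (0.995) and Fbxl16 (0.994) for Map1b, and Synpo (0.981) and Mllt6 (0.979) for Nefl. They were Litaf (0.999) and Mtss1 (0.998) for Mapt, Ralgds (0.994) and Dusp15 (0.99) for Kif1a, Slc9a9 (0.993) and Vps33a (0.987) for Tubb3, and Nin (0.995) and Lynx1 (0.992) for Map2. Kif5c was most like Pheta1 (0.953) and Jcad (0.948), Nefm like Bag6 (0.991) and Nptxr (0.984), and Stmn2 like Shmt2 (0.97) and Rpl41 (0.959). These partners were picked as the highest r over all such genes, so a high r follows in part from the choice. How high the best r would be for other genes was not tested. Whether the libraries of a group share a pool of cells is not stated in the labels, which call them technical replicates.

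Within its family, each gene took a different share of the RNA per exonic length. Kif5a held 56.1 ± 1% of the kinesin-1 heavy chains in WT and 53.4 ± 2.65% in KO at 6 months, but 41.6 ± 0.363% and 29.4 ± 2.56% at 18 months (SD, n = 2). The widely expressed chain Kif5b rose in share from 22.6 ± 0.833% in WT at 6 months to 43.4 ± 1.22% in KO at 18 months, while its own level stayed between 108 and 130 CPM in the group means. Kif5b was higher in KO at 6 months (log2 0.23, edgeR adjusted p = 0.0395) and did not pass at 18 months (-0.06, edgeR adjusted p = 0.634). Kif1a fell from 50.0 ± 0.607% of the KIF1 motors in WT at 6 months to 38.6 ± 1.48% in KO at 18 months, and the mitochondrial and lysosomal carrier Kif1b rose from 41.2 ± 0.487% to 57.3 ± 1.48%.

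Among the related proteins MAP2, tau and MAP4, Map2 held 23.0 ± 0.447% (WT) and 11.9 ± 0.854% (KO) at 6 months, and 7.29 ± 0.0808% and 10.9 ± 0.565% at 18 months. Mapt held 60.8 ± 0.0382% and 75.7 ± 0.423%, then 81.4 ± 0.00327% and 75.9 ± 0.128%. Among the MAP1 genes Map1a, the adult form, held the largest share in each library. Map1b held 19.4 ± 0.0833% in WT at 6 months and between 8.27% and 12.5% in the other group means. Tubb3 held 5.90 ± 0.692% of the beta tubulins in WT at 6 months and 3.60 ± 0.13% to 4.53 ± 0.414% elsewhere, and Tubb4a, the isotype abundant in oligodendrocytes, held 57.8 ± 0.146% in that group and 79.7 ± 0.512% to 86.8 ± 0.555% elsewhere. Stmn2 never exceeded 0.527% of the stathmins in a library, of which Stmn4 held most. Tubulin genes have near-identical copies, so reads between them may be split by the authors' counting.

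**Figure D4:**
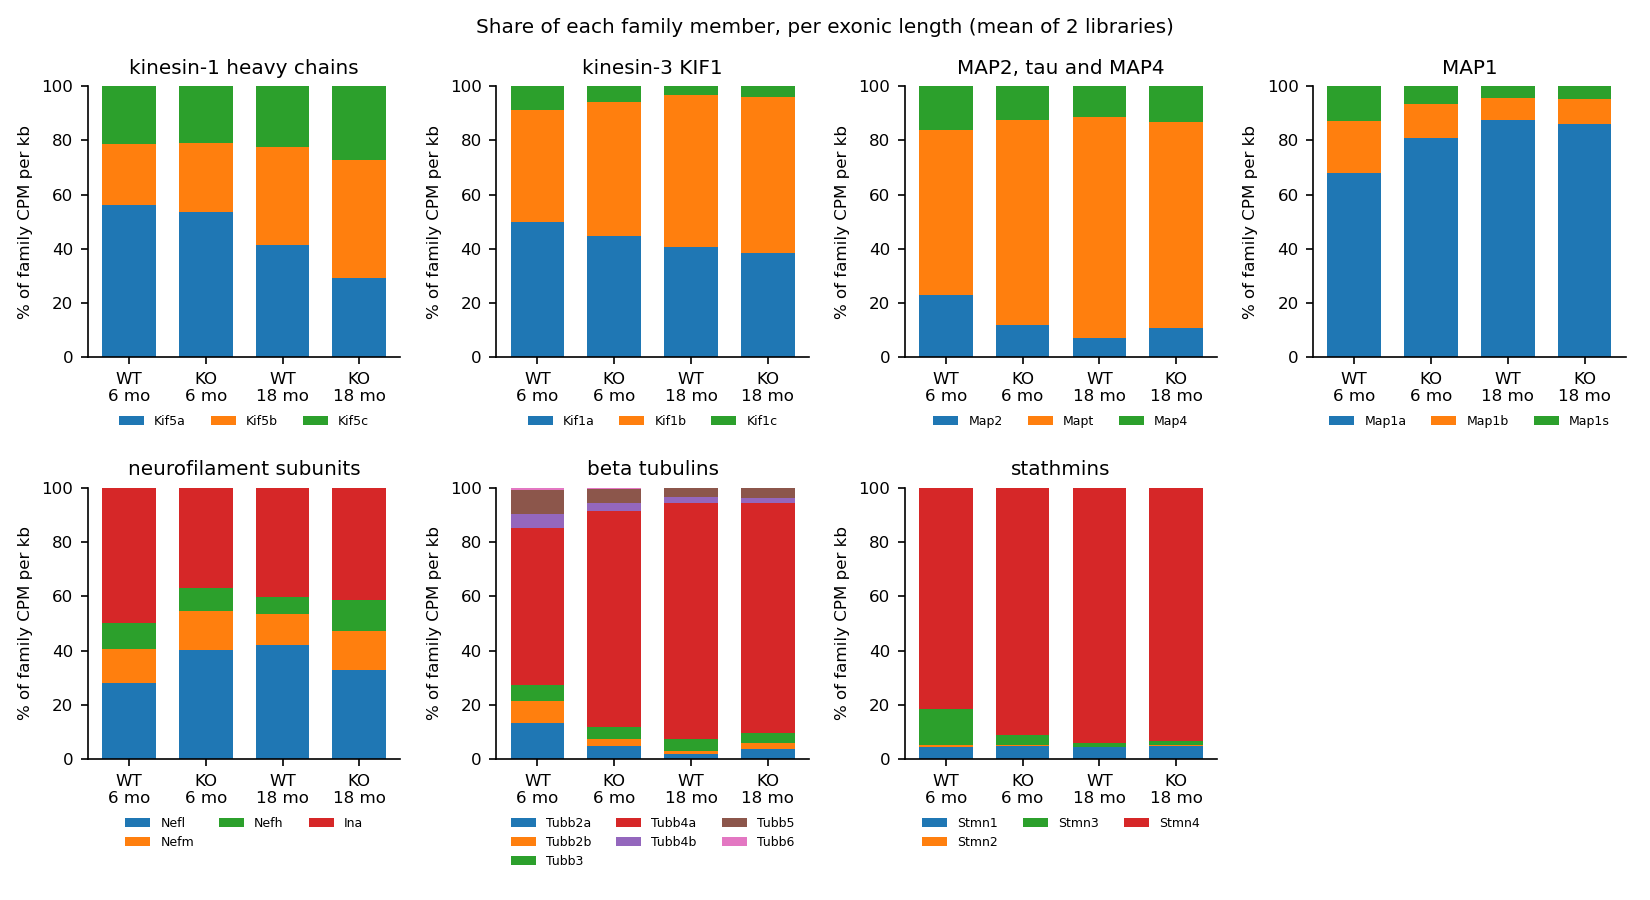
Share of each gene in the CPM per exonic kilobase of its family (vertical axes, percent, mean of 2 libraries) in the 4 groups. Kif5a shrinks from 56.1% of kinesin-1 heavy chains in WT at 6 months to 29.4% in KO at 18 months, and Mapt grows from 60.8% to 81.4% between WT at 6 and at 18 months.

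The wider machinery was described by 8 lists of cytoskeleton and transport genes, with 127 further genes of which 125 were tested. At 6 months 46 were higher and 32 lower in KO, with a median log2 fold change of 0.05, beside the backgrounds of 19.2% and 19.6% given above. At 18 months 12 were higher and 60 lower (median -0.21), beside 14.7% and 17.4% of all genes. In WT 54 were higher and 47 lower at 18 than at 6 months (median 0.11), beside 28.2% and 30.8%, and in KO 21 were higher and 43 lower (median -0.09), beside 13.8% and 17.9%. These shares of all genes are also the background of each list below, and no list was tested against them.

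Most genes of the return motor passed the test at each age. Of 24 dynein, dynactin and adaptor genes 16 were higher and 1 lower in KO at 6 months (median log2 0.25), and 0 higher and 16 lower at 18 months (-0.26). The dynein heavy chain Dync1h1 was at 1271 ± 28.8 (WT) and 1446 ± 36.8 CPM (KO) at 6 months and at 1772 ± 37.9 (WT) and 1474 ± 15.3 CPM (KO) at 18 months (SD, n = 2), higher in KO at the first age (edgeR adjusted p = 0.00404) and lower at the second (0.000149). Pafah1b1 (LIS1), a dynein regulator, was 1.44-fold higher and 1.19-fold lower in KO at these ages. Hook3, a dynein adaptor, was 1.41-fold higher at 6 months and did not pass at 18 months (log2 0.04). Of the 14 other kinesin genes 6 were higher and 2 lower at 6 months, and 0 higher and 8 lower at 18 months. Among them Kif1b went from 1467 ± 29.5 to 2230 ± 11.6 CPM at 6 months (1.52-fold higher in KO), and Kif13b and Kif13a were 1.46-fold and 1.47-fold higher at 6 months and 1.25-fold and 1.23-fold lower at 18 months.

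Cargo adaptors did not share 1 direction. Of 16 light chain and adaptor genes 2 were higher and 7 lower in KO at 6 months, and 3 higher and 6 lower at 18 months. The scaffold Mapk8ip1 (JIP1) was 1.78-fold higher at 6 months and 1.66-fold lower at 18 months, and the kinesin adaptor Fez1 1.37-fold higher and 1.60-fold lower. The nuclear envelope protein Syne1 did the opposite, at 3898 ± 28.9 (WT) and 2503 ± 3.64 CPM (KO) in the younger mice and 1657 ± 43 (WT) and 2648 ± 52.1 CPM (KO) in the older mice. Of the 22 other microtubule-associated proteins 10 were higher and 5 lower at 6 months, and 4 higher and 12 lower at 18 months. Map1a was 1.81-fold higher and 1.34-fold lower in KO at these ages, Tppp, which bundles microtubules in oligodendrocytes, 1.8-fold higher and 1.40-fold lower, and the plus-end protein Clasp2 1.40-fold higher and 1.13-fold lower.

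Of the 13 other tubulins 2 were higher and 6 lower in KO at 6 months, and 3 higher and 2 lower at 18 months, where 5 of 13 is near the 32.1% of all genes that passed. Tubb4a rose from 527 ± 2.5 to 983 ± 39.7 CPM at 6 months and Tuba1a 1.60-fold, while Tubb2a fell 2.11-fold and Tubb5 1.31-fold. At 18 months Tubb2a was 1.78-fold higher in KO and Tuba1a 1.50-fold lower. The median over all 14 tubulins at 18 months was -0.16, or -0.19 with Tuba8, which had no reads in WT of that age, at its bound of 3 reads over the group. Of 18 tubulin-modifying enzymes 5 were higher and 3 lower at 6 months, and 1 higher and 5 lower at 18 months; 8 and 6 of 18 are near the 38.8% and 32.1% of all genes that passed at these ages. The polyglutamylases Ttll7 and Ttll5 were 1.89-fold and 1.72-fold higher and then 1.31-fold and 1.23-fold lower in KO, and the deacetylase Sirt2 1.49-fold higher and then 1.42-fold lower.

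Of the 4 other intermediate filament genes tested, 3 were lower and 1 higher at 18 than at 6 months in WT, and 3 lower and 0 higher in KO. Ina, the alpha-internexin subunit of neurofilaments, was at 10.7 ± 1.83 (WT) and 5.50 ± 0.327 CPM (KO) at 6 months and at 2.65 ± 0.692 (WT) and 1.51 ± 0.187 CPM (KO) at 18 months. Nefh, the heavy subunit, was at 2.45 ± 0.44 and 1.52 ± 0.21 CPM and then at 0.506 ± 0.171 and 0.526 ± 0.0119 CPM. Its values rested on 12 to 17 reads per library at 6 months and 5 to 7 at 18 months. Nes (nestin), a filament of progenitors and vessel cells, was 2.17-fold lower with age in WT and 1.93-fold lower in KO. The cytolinker Dst, which glia also use, was instead 1.50-fold higher with age in WT. Of the 14 other stathmin and growth cone genes 4 were higher and 7 lower in KO at 6 months, and 0 higher and 10 lower at 18 months. Stmn3, a neuronal stathmin, fell 2.08-fold in KO at 6 months and 1.62-fold at 18 months, while Stmn1, Stmn4 and the collapsin response protein Dpysl2 were 1.86-fold, 1.98-fold and 1.91-fold higher at 6 months and 1.36-fold, 1.55-fold and 1.30-fold lower at 18 months. For the actin-binding Cnn3 the log2 values were 0.0041 and -0.11, and neither passed.

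**Figure D5:**
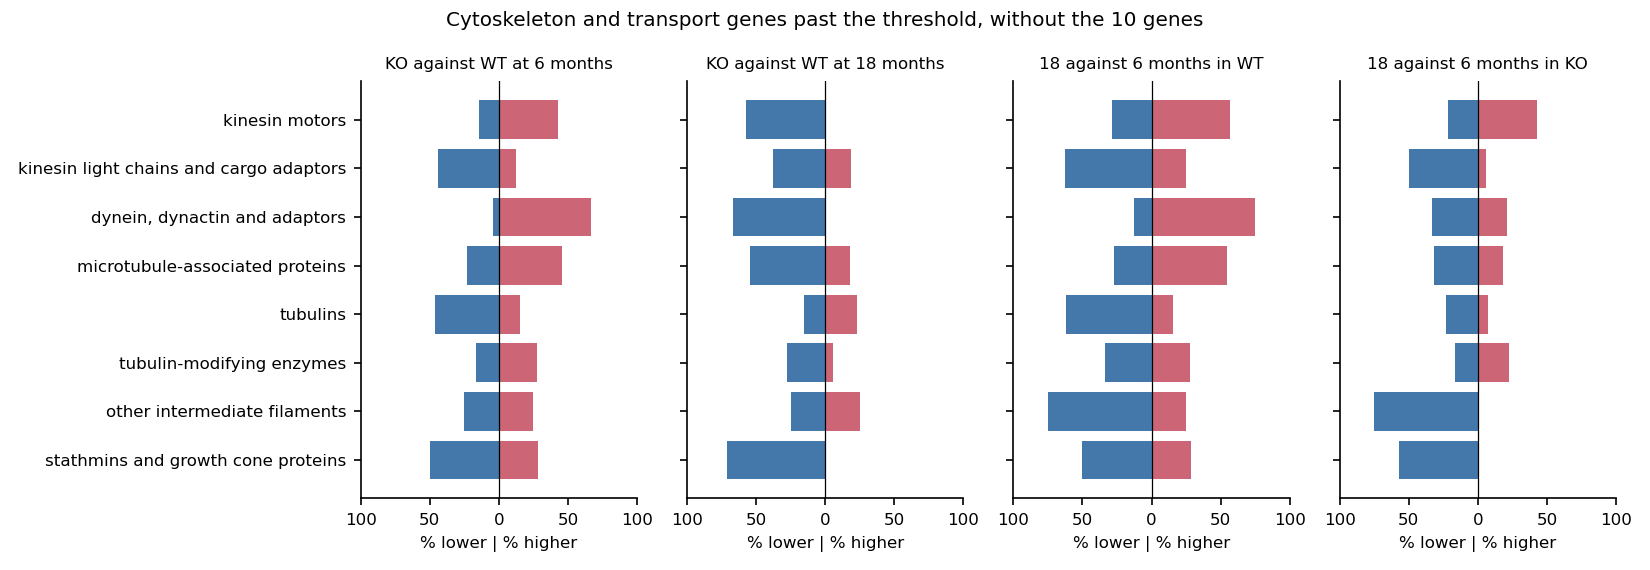
Percent of tested genes past an adjusted p of 0.05 in 8 lists without the 10 genes (bars to the right are higher, to the left lower) in the 4 pairwise comparisons. Dynein and dynactin genes are mostly higher in KO at 6 months (16 of 24) and lower in KO at 18 months (16 of 24), and stathmin and growth cone genes are lower in KO in 7 of 14 cases at 6 months and 10 of 14 at 18 months; 19.2% of all genes were higher and 19.6% lower at 6 months, and 14.7% and 17.4% at 18 months.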

How the data were processed

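RNA of sorted cortical cells was sequenced in 8 libraries, 2 technical replicates in each of 4 groups, and groups and replicate numbers were taken from the labels. The authors deposited raw read counts per Ensembl gene. The tools named in the submitters' processing notes are featureCounts 1.5.0-p1, STAR 2.5.2a and CASAVA 1.8.2, and the build is mm10. No source used here gives the annotation release, the strand setting or the handling of multiply matching reads, so near-identical copies and overlapping genes are uncertain. Symbols came from GENCODE M21, which named 55394 of 55573 IDs (99.7%).

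The quasi-likelihood F test of edgeR 4.0.16 (R 4.3.3) was run on the counts after TMM scaling and a filterByExpr minimum count of 10. All 4 groups were in 1 model, p-values were adjusted by Benjamini-Hochberg over 18205 tested genes, and the threshold was 0.05. An additive model of age and genotype gave the comparison across both ages. SE is the absolute log2 fold change over the square root of F. CPM divide the counts by TMM-adjusted library totals over the tested genes, given per library or as mean ± SD, n = 2. Levels and family shares are compared between genes per kilobase of exon. Shares of a summed CPM, and the ranking by which list genes were named, used CPM without length scaling. The fit was tested on simulated counts. Library totals, 6008175 to 13551218 counts, set the precision, and no molecular identifiers are stated, so duplicates count as reads. Replicates of a group differed by more than sampling noise (chi-square per gene 2.62 to 5.16) and were kept apart.

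The 10 genes and all lists were chosen with earlier results of these data known. Named were the 10 genes, the 3 other genes of each list with the highest mean CPM, the family members Kif5b, Nefh, Map1a, Kif1b, Ina, Tubb2a, Stmn1 and Stmn3, the 2 genes most alike to each of the 10, and Dnmt1; Tuba8, Pvalb and Elavl3 were added after their values were seen. Alternatives were DESeq2 1.42.0, RLE scaling, no filter, leaving out Gm26917 and mitochondrial genes, a replicate block, 2-group fits and leaving out each library.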

Additional observations from a re-analysis of the deposited data

Results flagged for a closer look

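For 6 of the 10 genes the difference between KO and WT differed between 6 and 18 months by the edgeR interaction test, adjusted over all genes tested; 39.1% of all genes passed the same test. For Mapt, which encodes tau, the log2 genotype difference at 18 months minus the one at 6 months was -1.14 (edgeR adjusted p = 3.11e-12), and KO was higher at the first age and lower at the second. Map2 had the opposite pair of signs, with a value of 0.81 (edgeR adjusted p = 2.25e-08). The motor gene Kif1a had -0.43 (edgeR adjusted p = 5.41e-05), and again the 2 ages had opposite signs that both passed. Kif5a had -0.83 (edgeR adjusted p = 1.81e-08) and Tubb3 -0.47 (edgeR adjusted p = 0.00758), and in both only the difference at 18 months passed. Nefl had -1.13 (edgeR adjusted p = 0.0401) on 13 to 57 reads per library, and did not pass with DESeq2 (DESeq2 adjusted p = 0.145). The Kif1a difference at 6 months and the Tubb3 and Nefl interactions each lost the call in some fits that left out 1 library. Beside the 6 results, all 14 oligodendrocyte markers passed with an interaction below 0 (median log2 -1.83). All 12 astrocyte markers passed above 0 (1.98) and all 10 microglial markers below 0 (-1.75). Of 12 oligodendrocyte precursor markers 9 passed above 0 and 1 below (0.71), and of 16 pan-neuronal markers 6 above and 1 below (0.34). The part of these cell types in the 6 results was not tested.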

How the results depend on the processing

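Each value was recomputed under the alternatives. Of the values for single genes 760 kept their direction and side of the threshold, 19 lost the call, 6 gained it and 35 changed sign. Outside the leave-one-out fits, the counts of all genes that moved by over 1.5 times were 3846 (main 5844) for KO against WT at 18 months and 3449 (main 5775) for age in KO with DESeq2, and, across both ages (main 566), 972 with DESeq2, 1458 with no filter and 274 with the replicate block. Signs of uncalled values that changed at 6 months were Nefl with DESeq2 (0.0081) and, with no filter, Kif5a (0.022), Map1b (0.0098), Nefl (0.030) and Tubb3 (0.0080); across both ages with no filter they were Kif5c (0.018) and Kif1a (0.0052). With no filter Stmn2 passed at 18 months (-1.01, adjusted p = 0.0487). The Map1b interaction passed with the replicate block (-0.21, adjusted p = 0.038). No other call of the 10 genes changed with the block. Over all genes tested, same-numbered libraries had deviations correlated at -5.24e-06 to 0.0758. Such a correlation cannot show an effect of the replicate number on few genes, so whether the numbers pair the samples stays unknown.

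Leaving out 1 library at a time, where the lone library left in a group is assumed to vary like the others, the number of the 10 genes called higher and lower was 1 to 2 and 1 to 1 at 6 months, 1 to 1 and 4 to 6 at 18 months, 3 to 3 and 5 to 6 for age in WT, 0 to 0 and 5 to 7 for age in KO, 1 to 1 and 4 to 6 for the interaction, and 0 to 0 in either direction across both ages. All genes called ranged from 5153 to 6991, 3737 to 6355, 9338 to 10735, 3255 to 6285, 5957 to 6871 and 146 to 376 in the same order. The low counts came without WT replicate 2 of 18 months (3737, KO against WT at 18 months), without KO replicate 2 of 6 months (3255) or KO replicate 1 of 18 months (3540, both age in KO), and without any of the 8 libraries across both ages. Leave-one-out values that changed sign, none of them called, ranged at 6 months from -0.019 to 0.010 for Kif5a, -0.040 to 0.15 for Kif5c, -0.050 to 0.0089 for Map1b, -0.25 to 0.30 for Nefl, -0.20 to 0.51 for Stmn2 and -0.14 to 0.11 for Tubb3. They ranged from -0.20 to 0.045 for Kif5c at 18 months, from -0.049 to 0.078 for Kif1a with age in KO, and from -0.45 to 0.12 for the Nefm interaction. Across both ages they ranged from -0.072 to 0.046 for Kif1a, -0.060 to 0.049 for Kif5c and -0.21 to 0.012 for Map2. Unless fewer samples are the alternative itself, the cause was not tested. Nefl, Nefm and Stmn2 had 7 to 57 reads per library.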
